A study of Caenorhabditis elegans with 9 samples.

Results

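The DNase I hypersensitive sites (DHS) of ptp-3, the Caenorhabditis elegans gene of the LAR family of receptor tyrosine phosphatases, were taken as every noncoding DHS that the authors' gene annotation assigned to ptp-3 (sequence name C09D8.1, WBGene00004215). There were 37 in embryos of 26644 noncoding DHS and 18 in L1 arrest larvae of 16084. The arrest-associated list, of L1 noncoding DHS that overlap no embryo noncoding DHS, held 1 of its 1835 for ptp-3. ptp-3 was chosen because it had the largest embryo number, so that number is a description and supports nothing. The next genes, hmr-1, kcnl-1 and nhr-27, had 28 embryo DHS each.

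The study cut the chromatin of isolated nuclei with DNase I, an enzyme that reaches DNA where nucleosomes are absent or loose, and sequenced the small fragments released. Embryos came from synchronised wild-type N2 cultures at roughly 40 cells, as 4 replicates. L1 arrest larvae, from cultures of the same strain, gave 5 replicates. The deposited lists hold merged replicates, so every value below is 1 value per stage, with no SD and no test between stages. No fed L1 larvae are among the samples, and arrest cannot be told apart from hatching, age or cell makeup. More cells with an open site and a wider opening in each cell also cannot be told apart. The files list open DNA and no expression, so the stage labels were not checked against marker genes.

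LAR-type receptors carry immunoglobulin and fibronectin type III repeats outside the cell and phosphatase domains inside it, and remove phosphate from tyrosines of proteins at the membrane. In C. elegans the long isoform PTP-3A is known from synapses, where it acts with the basement membrane protein nidogen (NID-1) and the active zone scaffold liprin-alpha (SYD-2). The shorter isoform PTP-3B is known from the movements of neuroblasts and epidermal cells in the embryo, in which ephrin signalling also acts. The isoforms start at different promoters, which the files do not mark, nor do they give the gene's strand.

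The authors searched embryo intronic DHS for short enriched words and listed the genes that hold each. ptp-3 stood in 2 of the 57 gene lists, both among the 10 made from intronic embryo DHS. With 32 embryo intronic DHS it had more chances than most genes to hold a word. The number of lists per gene was not compared, so the 2 lists are a description. The words are shown because they are the sequence the files tie to ptp-3, with capitals at the base, position 9 from the 5′ end, at which the words of 1 motif differ.
first motif, more frequent word: caaattttCa
first motif, other word: caaattttGa
second motif, more frequent word: gctgctgcT
second motif, other word: gctgctgcC

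In the authors' deposited table caaattttCa was found in 33 sequences of embryo intronic DHS and 6 control sequences, and caaattttGa in 18 and 3. Together they made a motif seen in 51 sequences against 9, with an E-value of 0.027 in the authors' deposited table. That motif's list named 70 genes, or 1.21% of the 5783 genes with an embryo intronic DHS. The second motif, a GCT repeat, stood in 110 sequences against 15 controls, 92 against 10 as gctgctgcT and 22 against 5 as gctgctgcC, with an E-value of 4.0e-13 in the authors' deposited table. Its list named 93 genes, 1.61% of the same genes. The table gives genes and no positions, so which ptp-3 DHS holds a word was not analysed here, and the words are not shown to be binding sites.

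The 37 embryo DHS stretched over 48.1 kb of chromosome II, from 10962941 to 11011040 in ce10, with 7.69 DHS per 10 kb. In L1 the 18 DHS lay between 10962961 and 11005030, over 42.07 kb, at 4.28 per 10 kb. Each noncoding DHS between the outermost ones belonged to ptp-3 in both stages, and none was also assigned to another gene. The files' nearest noncoding DHS to the left belonged to R03D7.8 (spe-57 in the RefSeq gene table of WBcel235) and to the right to the collagen gene col-81. Centres of neighbouring ptp-3 DHS were a median of 1030 bp apart in embryos (280 to 6058) and 1780 bp apart in L1 (320 to 6341.5). Most were full-width calls of 150 bp, 32 of 37 in embryos (72.8% of all embryo noncoding DHS) and 17 of 18 in L1 (79.3% of all).

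Introns held most of them. In embryos 32 of 37 were intronic (86.5%, exact 95% binomial interval 71.2 to 95.5), beside 43.8% of all noncoding DHS. In L1 15 of 18 were intronic (83.3%, 58.6 to 96.4), beside 40.4%. The rest were intergenic, 5 in embryos and 3 in L1, and all of these lay left of the gene model, whose left edge is at 10968388 by the distances the authors gave. These intervals, and those that follow, cover counting error only. Of other genes with many embryo DHS, kcnl-1 and nhr-27 had 28 of 28 in introns, hmr-1 had 20 of 28 and Y73B6A.1 had 1 of 23. A high intronic share was thus not particular to ptp-3 among such genes.

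Scores placed the ptp-3 DHS in the middle of each stage's list. The deposited score has no stated scale, is the authors' own value per DHS and is used here only to rank a DHS within its stage, as a percentile among that stage's noncoding DHS. Embryo scores ran from 123 to 585 with a median of 204, and the median percentile was 57.2 (0.995 to 93.1). Of the 37, 21 ranked above the 50th percentile (50.0% of all), 3 above the 90th (10.0% of all) and 6 below the 20th (20.0% of all). L1 scores ran from 167 to 429 with a median of 217 and a median percentile of 51.5 (15.2 to 88.8). There, 10 of 18 ranked above the 50th percentile (50.0%), 1 below the 20th (20.0%) and 0 above the 90th (10.0%), where a count of 0 of 18 allows a share of up to 16.7% (3 counts of the total). The scores of these noncoding sites thus spread over most of each list. One DHS without a noncoding part, at 11006261 to 11006410 inside the span, scored far higher, 2659.61 in embryos and 2391.58 in L1, and is not among the sites counted here.

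**Figure D1:**
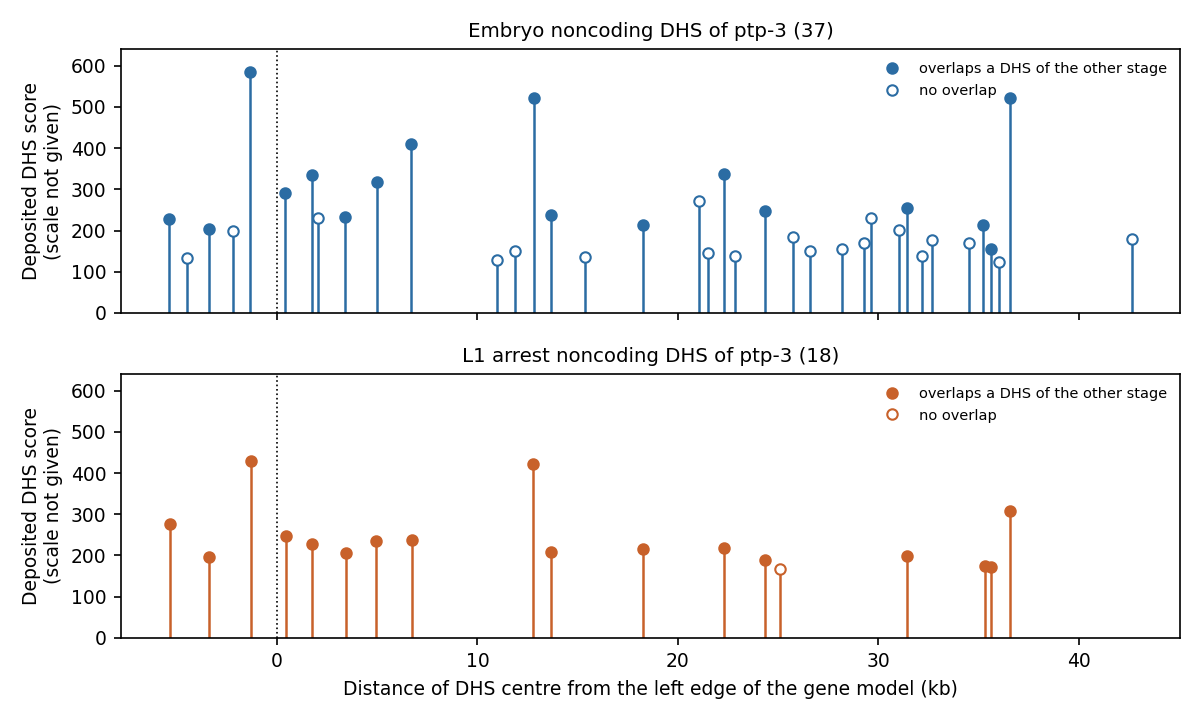
Deposited score of each noncoding DHS of ptp-3 (vertical axis, scale not given) against the distance of its centre from the left edge of the gene model in kb, for 37 embryo DHS (top) and 18 L1 arrest DHS (bottom). Filled points overlap a DHS of the other stage and open points do not; all 7 embryo points with the highest scores are filled, and the dotted line is the left edge.

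The intergenic sites are described first, from left to right. The outermost, chrII:10962941-10963090, lay 5297 bp from the gene model and scored 227 in embryos (percentile 64.7) and 277 in L1 (71.5), over 4 embryo footprints and 2 in L1. It was the only overlapping site whose percentile was higher in L1 than in embryos. chrII:10963841-10963990 scored 133 (12.1), had no L1 counterpart and no footprint. chrII:10964941-10965090 kept the same boundaries in both stages and scored 204 (57.2) in embryos and 197 (40.3) in L1. These outer sites thus alternated between shared and embryo-listed calls.

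Closer to the gene, chrII:10966141-10966290 scored 199 (55.0) in embryos, with 2 footprints and no L1 DHS. The innermost, chrII:10966981-10967130, 1257 bp from the gene model, had the highest ptp-3 score in both stages: 585 (93.1) in embryos and 429 (88.8) in L1. It held 5 embryo and 4 L1 footprints, which covered 101 bp and 78 bp of its 150 bp.

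The first 10 kb of the gene model held 6 embryo DHS, with a median percentile of 79.4, the highest of any 10 kb stretch of the locus, and 5 of the 6 overlapped an L1 DHS. chrII:10968721-10968870, 0.407 kb from the left edge, scored 290 in embryos (77.7) and 246 in L1 (63.6). chrII:10970081-10970230 scored 336 (83.0) in embryos and 228 (56.6) in L1. Its neighbour chrII:10970361-10970510, at 232 (65.9) and with 2 footprints, was the 1 site of this stretch with no L1 overlap.
The remaining 3 sites of the stretch lay farther from the left edge. chrII:10971721-10971870 scored 233 (66.3) in embryos and 205 (44.9) in L1. chrII:10973281-10973430 scored 317 (81.0) and 234 (59.0). chrII:10975021-10975170 scored 411 (88.0) and 238 (60.5), and with 6 embryo footprints it had the largest number of any ptp-3 DHS.

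From 10 to 20 kb there were 6 embryo DHS, of which 3 overlapped an L1 DHS. chrII:10981121-10981270 stood far above its neighbours, at 521 in embryos (91.8) and 421 in L1 (88.4), ranks 3 and 2 among the 17 overlapping pairs. chrII:10981961-10982110 scored 237 (67.3) and 208 (46.8), and chrII:10986561-10986710 scored 215 (60.7) and 216 (51.2). The 3 without an L1 overlap all ranked low: chrII:10979301-10979450 at 127 (5.66), chrII:10980161-10980310 at 151 (28.0) and chrII:10983701-10983794 at 135 (13.8).

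From 20 to 30 kb the embryo list was densest, with 10 DHS, and only 2 of them overlapped an L1 DHS. If each had overlapped as often as all embryo DHS of its score quintile, 5.37 would have. Those shares cover intronic and intergenic DHS together, the stretch was picked after its values were seen, and the difference was not tested. The 3 stretches to its left had 3, 5 and 3, beside 2.94, 5.29 and 3.10. From 20 to 30 kb the shared sites were chrII:10990601-10990750, at 336 (83.0) in embryos and 218 (51.8) in L1, and chrII:10992661-10992810, at 247 (69.7) and 188 (34.1). Among those without overlap was chrII:10989341-10989490, which at 271 (74.5) and with 4 footprints had the highest score of any ptp-3 site not listed in L1.
The other 7 scored between 139 and 229. Their starts were 10989801 (percentile 23.2), 10991181 (17.0), 10994081 (49.1), 10994961 (27.8), 10996481 (31.5), 10997601 (40.3) and 10997921 (65.2). The last 5 of these and the next site, chrII:10999341-10999490 at 201 (55.9), formed the longest run without an L1 overlap: 6 DHS over 5.41 kb.

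From 30 to 40 kb there were 9 embryo DHS and 4 overlapped an L1 DHS, beside 4.37 at the quintile shares. chrII:11004881-11005030 was the strongest, at 522 (91.8) in embryos and 307 (77.2) in L1, with the same boundaries in both. chrII:10999721-10999870 scored 255 (71.6) and 199 (41.4), chrII:11003541-11003690 scored 212 (59.9) and 175 (23.3), and chrII:11003941-11004090 scored 156 (32.1) and 172 (20.6). The last of these was the lowest embryo score among shared sites, and it had 1 embryo footprint.
Besides the site at 10999341, those without overlap started at 11000481 (percentile 17.4), 11000981 (45.2), 11002841 (41.2) and 11004341 (0.995). The outlying last member, chrII:11010987-11011040, was a 54 bp call at 180 (46.9), 6.058 kb from its neighbour by centres, and the L1 list had nothing that far along the gene.

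Fewer ptp-3 sites were listed in L1, and nearly all L1 sites were also embryo sites. Of the 18 L1 DHS, 17 overlapped an embryo noncoding DHS by at least 1 bp (94.4%, 72.7 to 99.9), beside 88.6% of all L1 DHS. Of the 37 embryo DHS, 17 overlapped an L1 DHS (45.9%, 29.5 to 63.1), beside 53.5% of all. Within introns this was 14 of 32 (43.8%, 26.4 to 62.3), beside 47.9%, and among the intergenic sites 3 of 5, beside 57.8%. For the 15 intronic L1 sites the count was 14 (93.3%, 68.1 to 99.8), beside 86.1%, and for the 3 intergenic ones 3, beside 90.3%. Each interval given here contains the share of the whole list, which is no test, since the intervals cover counting error only. Because ptp-3 was chosen on its embryo number, the embryo share is a description. L1 DHS made up 32.7% of the ptp-3 sites of both stages, beside 37.6% over all genes. The embryo number is part of that total, so the choice of ptp-3 lowers the 32.7%, and it too is a description.

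Which embryo sites were shared went with their score. Shared sites had a median embryo score of 255 (156 to 585, percentile 71.6) and the others a median of 162 (123 to 271, percentile 35.9), and the ranges overlapped. Over the whole list the median percentiles were 70.9 and 27.3. By quintile of embryo score, from lowest to highest, 0 of 6, 1 of 5, 2 of 9, 7 of 10 and 7 of 7 ptp-3 sites were shared, where the whole list had 12.7%, 26.1%, 52.3%, 82.6% and 93.7%. At those whole-list shares 21.6 of the 37 would have been shared, and 17 were. For introns the values were 17.5 and 14 of 32. Neither difference was tested.

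The 17 shared sites kept their position closely. Their calls overlapped by 90 to 150 bp with a median of 130, 6 had the same start, and starts differed by at most 60 bp. All these calls were 150 bp wide and their starts differed only in steps of 20 bp. The same measures over the whole list were not analysed here, so close starts are not read as a trait of ptp-3. The order of scores within the locus was also similar, with a Spearman rho of 0.782 over 17 pairs that share both stages' libraries, beside 0.742 over all 14247 pairs. Percentiles were lower in L1 in 16 of 17 pairs, with a median L1 minus embryo difference of -20.5, and in 11738 of the 14247 pairs of the whole list. Percentiles from lists of unequal length show no change of a site, so this difference is given only as a count.

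**Figure D2:**
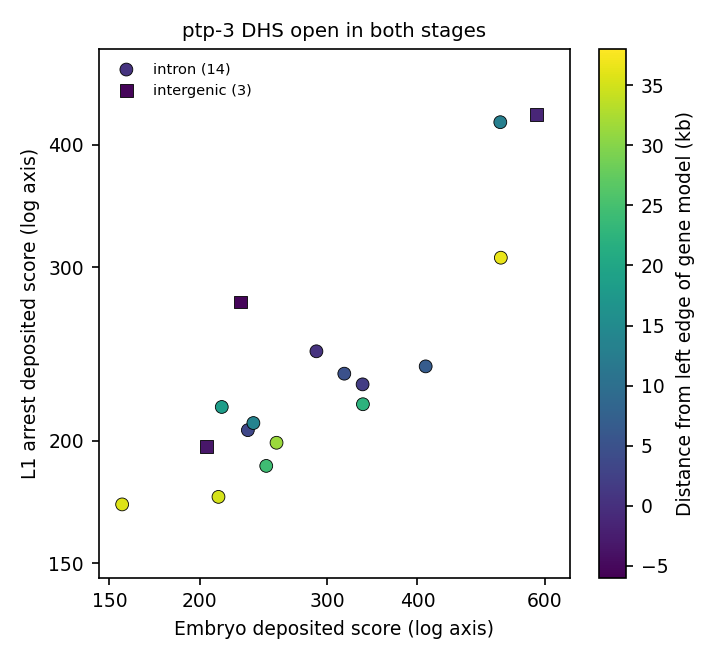
Deposited L1 arrest score against embryo score, both on log axes, for the 17 ptp-3 DHS open in both stages (14 intronic as circles, 3 intergenic as squares), coloured by distance from the left edge of the gene model in kb. The intergenic site with 585 and 429 has rank 1 in both stages, and the intronic site with 521 and 421 has rank 3 in embryos and 2 in L1.

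Footprints, short stretches inside a DHS with fewer cuts than their flanks, were present in most ptp-3 sites, as in most sites of each whole list. After merging overlapping or touching calls there were 85 in embryos and 50 in L1. At least 1 was present in 33 of 37 embryo DHS (89.2%, 74.6 to 97.0), beside 82.0% of all, and in 17 of 18 L1 DHS (94.4%, 72.7 to 99.9), beside 84.0%. Intronic sites had one in 29 of 32 (90.6%, 75.0 to 98.0) in embryos, beside 72.4% of intronic DHS. Among intronic calls of the full 150 bp it was 24 of 27 (88.9%, 70.8 to 97.6), beside 93.8%. Of all full-width embryo calls of ptp-3 28 of 32 had one (87.5%, 71.0 to 96.5), beside 93.4%. Among embryo calls of equal width the ptp-3 share was thus not above that of the list. In L1 16 of 17 full-width calls had one (94.1%), beside 92.9%, and 13 of 14 intronic ones (92.9%), beside 92.7%.

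Shared and embryo-listed sites differed in this measure as they did in score. Each of the 17 shared embryo DHS had a footprint (91.8% of all shared DHS), with a median of 3. Of the 20 others 16 had one (70.8% of all such DHS), with a median of 2 where any was present. The embryo sites without a footprint, at 10963841, 10979301, 11000481 and 11004341, all ranked below the 20th percentile. In L1 the site at 10992661 had none, though the same interval held 2 in embryos. The median DHS score was lower in the 20 embryo sites without an L1 overlap than in the shared ones, with overlapping ranges, and the part of the score in the footprint counts was not tested.

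The lowest footprint scores fell in the same 3 places in both stages. Footprint scores are negative, their scale is not given, and lower is taken here as the stronger call. The lowest embryo scores were -10.2 in chrII:10990601-10990750, -10.0 in chrII:10981121-10981270 and -8.84 in chrII:10968721-10968870. In L1 the lowest were -8.98 in the overlapping DHS at 10981101, -6.90 in that at 10990601 and -6.65 in that at 10968761. Medians over all ptp-3 footprints were -3.40 in embryos and -3.38 in L1, beside -3.46 and -3.40 over the whole lists. Of these sites, only the one at 10981121 also ranked above the 90th percentile by DHS score. The lowest footprint score in a site without L1 overlap was -6.06, in chrII:11002841-11002980.

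Their footprint edges could be compared directly. At 10990601 the first footprint ran from 10990635 to 10990664 in embryos and from 10990634 to 10990665 in L1, so both edges differed by 1 bp. The next ran from 10990670 to 10990740 in embryos and from 10990672 to 10990715 in L1. At 10981121 the second embryo footprint, 10981200 to 10981223, matched 10981201 to 10981225 in L1, and the others there did not match as closely. The lowest-scoring one, 10981167 to 10981192, lay inside a wider L1 footprint, 10981141 to 10981197. The embryo footprint at 10981227 to 10981232 overlapped none in L1. That at 10981240 to 10981269 overlapped one at 10981237 to 10981248 only in part. At 10968721 a single merged embryo footprint of 95 bp, 10968772 to 10968866, was set beside 4 separate ones in L1. It covered those at 10968793 to 10968826, 10968828 to 10968833 and 10968842 to 10968861, and ended just inside one at 10968864 to 10968896.

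**Figure D3:**
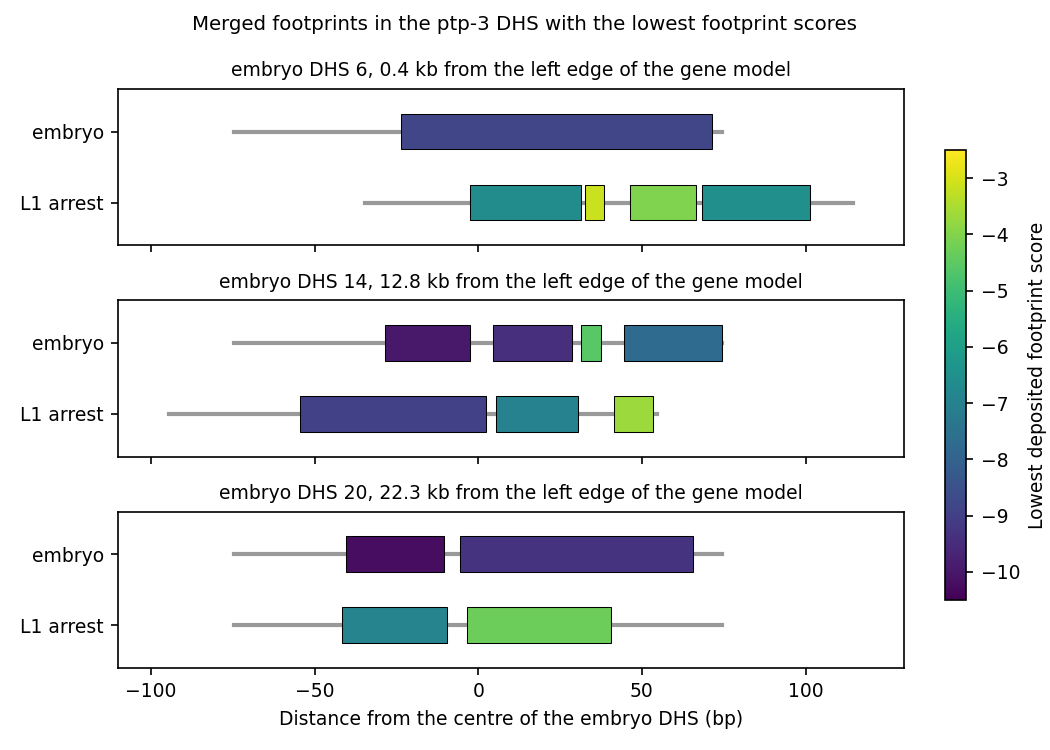
Merged footprints (boxes) in the 3 ptp-3 DHS with the lowest footprint scores, in embryos (upper row of each panel) and L1 arrest (lower row), against distance from the centre of the embryo DHS in bp, coloured by the lowest deposited footprint score. Grey lines are the DHS; the first footprint of the DHS 22.3 kb from the left edge begins within 1 bp of the same place in both stages, and the single 95 bp embryo footprint of the DHS 0.4 kb from the edge covers 3 in L1 and reaches the edge of another.

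Across all shared ptp-3 sites, 34 of 54 embryo footprints overlapped an L1 footprint (63.0%), beside 60.1% in all shared DHS. With overlap of at least 50% of both footprints it was 18 of 54 (33.3%), beside 33.1%. Of the L1 footprints there, 35 of 48 overlapped an embryo one (72.9%), beside 73.0%, and 18 of 48 at the stricter limit (37.5%), beside 42.5%. Each of these shares lay within 5 percentage points of its background. Merged widths ran from 6 to 95 bp in embryos (median 16, beside 18 over the whole list) and 6 to 57 bp in L1 (median 20.5, beside 21). Footprints covered 32.1% of the bases of the ptp-3 DHS in embryos and 45.5% in L1. Coverage over the whole lists is not given here, so these shares are a description.

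The 1 arrest-associated site lay in an intron at chrII:10993401-10993507, 5.56% of the 18 L1 sites beside 11.4% of all. It was a 107 bp call with 2 footprints and the lowest L1 score of the locus, 167 (percentile 15.2). An embryo DHS at 10993541 to 10993690, which scored 176 and had no noncoding part, began 33 bp to its right. In the list of all L1 DHS, before the noncoding parts were taken, the call reached to 10993550 and overlapped that embryo DHS by 10 bp. An overlap with an embryo DHS of any kind was found for 354 of 1812 untrimmed arrest-associated DHS (19.5%). The site is thus next to DNA that was also open in embryos.

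ptp-3 was compared with the other genes that had many sites. Among 11055 genes with an embryo noncoding DHS the median number was 2 and 46.2% had 1. In L1 ptp-3 had rank 5 of 8204 genes, whose median was 1 and highest 43. Among the 22 genes with at least 20 embryo DHS, ptp-3 spread over 48.1 kb (range 15.9 to 129.9, median 33.67), and its 7.69 DHS per 10 kb ranked 10 (1.69 to 13.2, median 7.02). Its share of embryo DHS overlapping L1, 45.9%, ranked 16 (19.0 to 95.7, median 55.0). Its footprints per DHS, 2.30, were near the median of 2.21. It therefore had a wide span at an ordinary density for such genes.

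**Figure D4:**
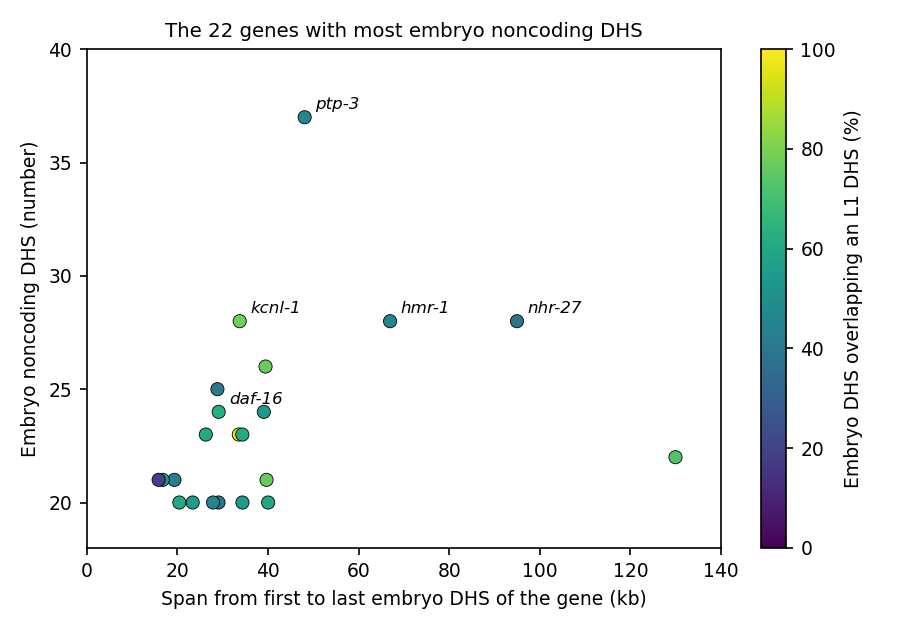
Number of embryo noncoding DHS against the span in kb from the first to the last of them, for the 22 genes with at least 20, coloured by the percentage that overlap an L1 DHS. ptp-3 has 37 over 48.1 kb, above genes with wider spans such as nhr-27 (28 over 94.95 kb) and hmr-1 (28 over 66.95 kb). It is the highest point because it was chosen for the largest embryo number.

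The 5 genes with a gene symbol most like ptp-3, by the sum of absolute differences in 4 counts (intronic and other DHS in each of 2 stages), were nhr-27, daf-16, dkf-2, mbk-2 and gap-2. nhr-27, a nuclear hormone receptor gene, had 28 embryo and 13 L1 DHS and a sum of 14. daf-16, the FOXO factor of insulin signalling, had 24 and 14 and a sum of 17. The kinase genes dkf-2 (protein kinase D) and mbk-2 (DYRK family) had 23 and 14 each, with sums of 18, and the Ras GTPase-activating protein gene gap-2 had 20 and 15, with a sum of 20. kcnl-1 and unc-53 also had 20 and came after it alphabetically. Shares of embryo DHS overlapping L1 were 39.3% for nhr-27, 62.5% for daf-16, 60.9% for dkf-2 and mbk-2 and 60.0% for gap-2, beside 45.9% for ptp-3. Genes known only by a sequence name were not in this naming, and 2 of them were closer than gap-2: Y48C3A.5, with a sum of 18 and 76.9% overlapping, and Y61B8A.6, with a sum of 19 and 72.7%.

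Genes of LAR's known surroundings mostly had noncoding DHS too, and mostly more in embryos. Of a list of 44 such genes, 41 had an embryo DHS (93.2%, beside 52.4% of 19971 coding genes), 40 had an L1 DHS (90.9%, beside 38.9%), and 37 had more in embryos than in L1 (84.1%, beside 32.9%). None had more in L1, 4 had equal numbers, and hmp-2 (beta-catenin), mab-20 (semaphorin) and slt-1 (Slit) had none. The list held 320 embryo and 180 L1 DHS, with medians of 6.5 and 3 per gene beside 1 and 0 over coding genes. Of its embryo DHS 53.1% overlapped an L1 DHS, beside 45.9% for ptp-3 and 53.5% for all. The 32.9% is taken over all 19971 coding genes, and a gene without an embryo DHS cannot have more in embryos. Of genes with an embryo DHS, 37 of 41 listed genes and 6579 of 10471 coding genes had more in embryos. The listed genes also had more DHS each, and the shares were not matched for this number. The embryo list is longer than the L1 list as a whole, and these counts are given as a description.

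Among matrix and proteoglycan genes, which include ligands of LAR receptors, the 7 genes had 38 embryo and 24 L1 DHS. The glypican gene lon-2 had 8 and 3, the collagen XVIII gene cle-1 had 7 and 3, and the syndecan gene sdn-1, a heparan sulfate proteoglycan, had 7 and 6. The nidogen gene nid-1 had 3 and 2.
The 4 other receptor phosphatase genes had fewer than ptp-3, with medians of 4.5 and 2 beside 1 and 0 over coding genes. Among them ida-1, of the dense-core vesicle, had 7 and 6, ptp-4 5 and 1, and dep-1 4 and 3. Cytoplasmic partners, 12 genes with 89 and 51, were led by the lamellipodin-like mig-10 (18 and 10) and the Trio-like exchange factor unc-73 (18 and 15), followed by the kinase abl-1 (10 and 4). The liprin gene syd-2 had 3 and 1.

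The ephrin group had 46 embryo and 21 L1 DHS over 5 genes. The Eph receptor gene vab-1 had 15 and 8, and the ephrin genes efn-1 and efn-2 had 12 and 3, and 9 and 5. Of this group's embryo DHS 41.3% overlapped an L1 DHS (19 of 46, 27.0 to 56.8), beside 53.5% of all, which lies within the interval. That interval treats the 46 DHS of 5 genes as separate and covers counting error only, so the difference was not tested.
In the semaphorin and plexin group plx-1 and plx-2 had 7 and 4 each. Guidance genes had 38 and 19, with 15 and 10 for the Robo receptor sax-3, 14 and 5 for the netrin receptor unc-5 and 7 and 2 for the netrin unc-6. Adhesion genes had 76 and 46, with 28 and 13 for the cadherin hmr-1, 13 and 11 for the neurexin nrx-1 and 13 and 9 for the L1-type adhesion molecule sax-7. No gene of the list reached the 37 embryo DHS of ptp-3, which follows from choosing ptp-3 as the gene with most. None reached its 18 in L1 either, which is given as a description.

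**Figure D5:**
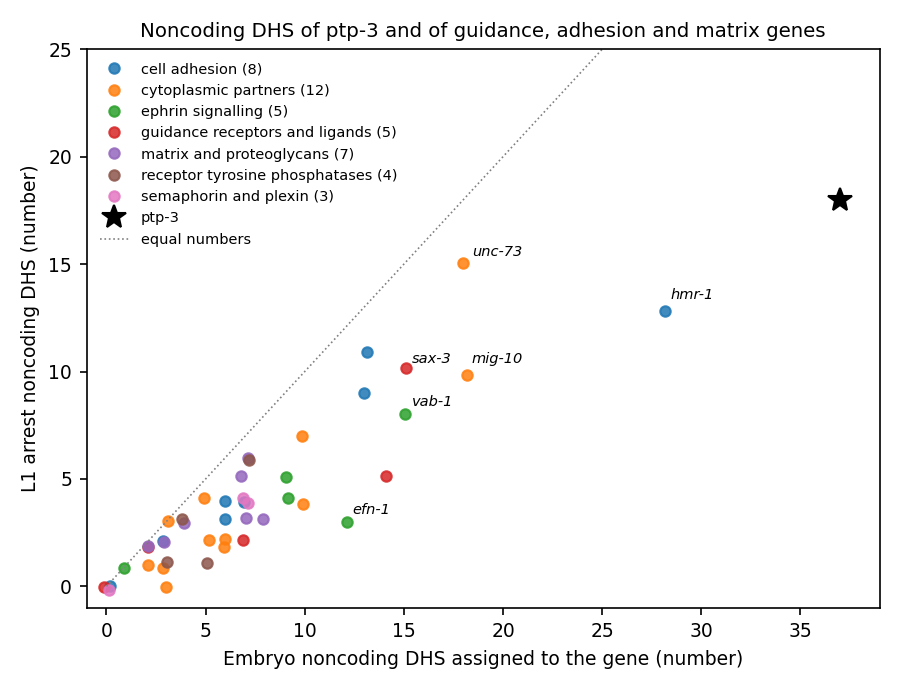
Number of L1 arrest noncoding DHS against embryo noncoding DHS for the 44 listed genes, coloured by role group (points shifted slightly to separate ties), and ptp-3 (star). ptp-3, at 37 and 18, lies beyond all 44, on the embryo axis because it was chosen for the largest embryo number. No listed gene lies above the dotted line of equal numbers.

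The GCT-repeat motif of the authors' deposited table also listed 5 of the 36 genes of this list with an embryo intronic DHS (13.9%, beside 1.61% of all such genes). They were dep-1, sax-3, sax-7, unc-73 and vab-1, named after their values were seen. Their embryo intronic DHS numbered 2, 8, 8, 16 and 13 in that order. A gene with more intronic DHS has more chances to hold a word. The 1.61% was not matched for this number, so the difference is a description and was not tested. The motif that reads caaattttCa listed 0 of the 36, which allows a share of up to 8.33%, beside 1.21%.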

How the data were processed

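DNase-seq was done on nuclei of N2 embryos (4 replicates, 3 read at 50 bp and 1 at 76 bp) and L1 arrest larvae (5 replicates, 3 at 50 bp and 2 at 76 bp), per the labels. The ce10 build, Bowtie 1.0.0, FastQC and SAMtools are named, per the submitters' processing notes. Peaks were called with HOTSPOT version 3 over 150 bp, filtered at an IDR of 0.1, cleared of repeats and merged per stage, and footprints of 6 to 40 bp were called with DNase2TF at an FDR of 0.05, per the series design text. Depth per sample was not given in the merged lists. The peak and footprint lists hold a score as deposited by the authors, whose scale is not given. The deposited gene tables hold distances to genes in bp. The motif tables hold counts of sequences, p-values and E-values as deposited by the authors.

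Coordinates were counted from 1. Overlap meant at least 1 bp. Footprints that overlapped or touched were merged (125825 embryo entries to 55890, 79107 L1 entries to 32685). Percentiles were the share of lower values plus ties counted at the midpoint. Shares carry exact Clopper-Pearson intervals at 95%, and a count of 0 is given the limit of 3 counts. Overlap and percentile code was tested on simulated data. No test between stages was made, since replicates were merged before deposit. RefSeq names came from the WBcel235 gene table. Genes were named by a fixed rule: the 5 genes with a symbol most like ptp-3, and per role group the 3 with most embryo DHS, ties by alphabet, plus those with none; nid-1 and syd-2 were added for their known ties to PTP-3. ptp-3 and the gene list were chosen with earlier results of these data known. Python 3.11.15, pandas 2.3.3, numpy 2.4.6 and scipy 1.17.1 were used.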

Additional observations from a re-analysis of the deposited data

Results flagged for a closer look

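Open DNA that the noncoding lists leave out lay inside the ptp-3 locus, in lists that the comparisons above do not use. The lists of all DHS hold 7 embryo DHS between the outermost ptp-3 sites that have no noncoding part, of 43 in all (16.3%), beside 37.8% of the whole embryo list. In L1 there were 2 of 20, beside 33.1%. One of them, chrII:11006261-11006410, scored 2659.61 in embryos, rank 304 of 41825 DHS, and 2391.58 in L1, rank 211 of 23670, with the same boundaries in both. It lies 37.9 kb from the left edge of the gene model, and its scores were above those of all 37 and 18 noncoding ptp-3 sites. The other 6 embryo DHS scored from 124 to 299, and the other L1 one scored 170. Apart from the embryo DHS beside the arrest-associated site, they entered no comparison, and which exon each overlaps was not analysed here.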

How the results depend on the processing

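Of 30 alternatives tried on 12 results, 25 left the value within its 95% interval, within the spread of the sites or, for numbers, within 1.5 times, and 5 moved it. Taking untrimmed calls, 100% of the 18 L1 sites overlapped an embryo DHS of any kind, instead of 94.4% for noncoding parts. The matching share of all L1 DHS is not given here. Of all untrimmed arrest-associated DHS, 354 of 1812 (19.5%) gained an overlap in this way. Keeping sites above the 50th percentile left 21 embryo and 10 L1 sites, by construction. Without merging, the footprints numbered 178 in embryos and 109 in L1, since the deposited lists hold overlapping entries. The share of embryo sites overlapping L1 ran from 43.8% (introns) to 61.5% (embryo list reduced by score to the L1 number, 16 of 26). The whole-list share after that reduction is not given here. Higher-scoring embryo DHS overlapped L1 more often in the whole list too, so the 61.5% cannot be set beside 53.5%. Untrimmed sites and introns alone, 5 of the 30, were chosen after seeing the data. No paired analysis was possible because replicates were merged before deposit and the stages share no replicate letters. For the same reason leaving out a replicate was not run.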
